A study of Mus musculus with 8 samples.

Results

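Midbrain dopaminergic (mdDA) neurons sorted as GFP-positive cells at E13.5 were compared with the mdDA domain cut out of the ventral midbrain (VM) at E12.5. The aim was to describe which genes were lower and which were higher in the sorted neurons. The comparison used 4 of the 8 arrays of the series, 2 of sorted neurons and 2 of the domain, and all probe sets with exactly 1 gene symbol, which were 21789 of 35556 probe sets and stood for 19938 genes. The sorted cells came from *Pitx3GFP/+* embryos on a mixed C57BL/6 x 129/Ola background, in which GFP takes the place of 1 *Pitx3* allele. The mdDA domain came from *BAT-gal* embryos, which carry a WNT/b-catenin reporter transgene, on a mixed B6D2F1 background, and was isolated by laser microdissection from fixed and antibody-stained sections of 5 embryos. The same neurons sorted at E14.5 and the lateral midbrain domain of the same E12.5 *BAT-gal* embryos, again with 2 arrays each, are given beside the results as levels. The 2 arrays of each group are technical replicates, so the p-values measure the spread between arrays and not between embryos, and the number of embryos behind the sorted cells is not given in the sources used here. Stage, strain, genotype and isolation differed together between the 2 groups, and their parts in any difference cannot be told apart.

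mdDA neurons arise from floor plate cells of the ventral midbrain. Radial glia-like progenitors divide at the ventricle, pass through a short proneural stage, and their daughters switch on *Nr4a2*, *Pitx3* and *Th* as they leave the cycle and migrate outward. A dissected domain therefore holds progenitors, newborn and maturing mdDA neurons together with neighboring neurons, blood vessels and blood, whereas GFP driven from the *Pitx3* locus marks the postmitotic mdDA neurons.

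Expression levels are the deposited log2 values of a robust multi-array average (RMA), and a difference is the mean level in E13.5 sorted neurons minus that in the mdDA domain. A probe set was called where limma over all 8 arrays gave an adjusted p below a false discovery rate of 10% and the difference was at least 2-fold. Of the probe sets with 1 symbol, 499 (2.29%) were called higher and 240 (1.10%) lower in the sorted neurons. With each gene represented once, 447 genes (2.24% of all genes) were called higher and 202 (1.01%) lower, and these shares are the background for the gene lists that follow. Over all 35556 probe sets, including those without a single symbol, the shares were 2.10% higher and 2.27% lower. The arrays of the 2 groups did not overlap for 57.2% of genes, so that separation of 2 against 2 arrays is by itself common in these data. The arrays of sorted neurons had a median level of 4.39, against 4.60 and 4.57 in the domain, and the median difference over genes was -0.05. Centring each array on its median shifted every difference by 0.20 on the log2 scale and raised the share of calls that were higher from 67.5% to 86.2%, whereas repeated quantile normalization gave 64.4%. Between E14.5 and E13.5 sorted neurons 0.0301% of genes were called, and 2 of the 649 genes called against the domain were among them. The 2 arrays of a group correlated at 0.975 for the sorted neurons and 0.981 for the domain, across probe sets.

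**Figure D1:**
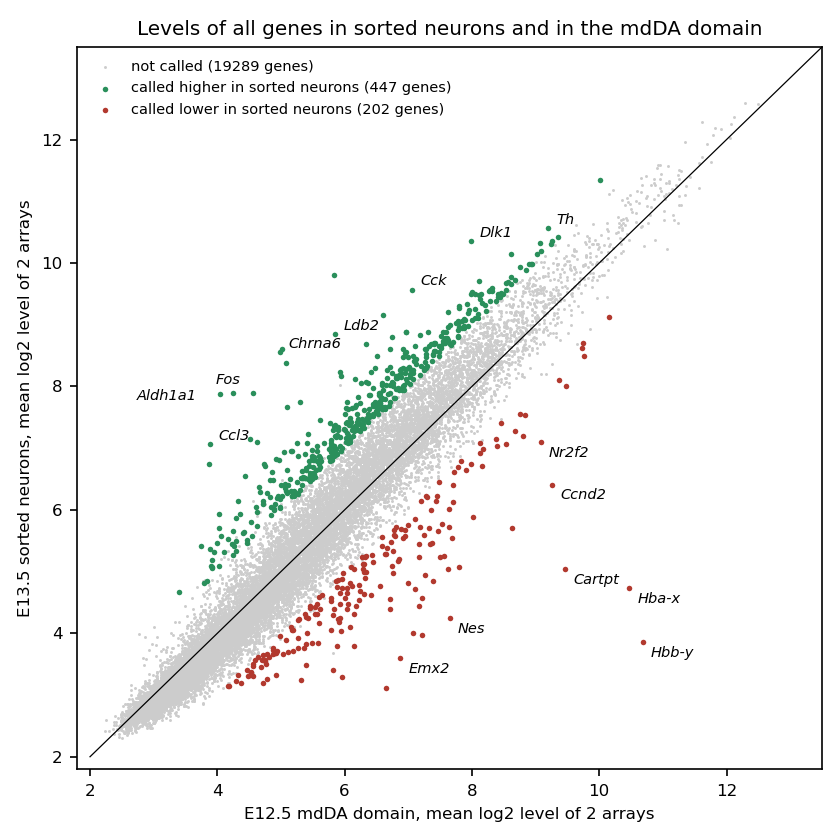
Mean log2 level of each of 19938 genes in the E12.5 mdDA domain (x axis, 2 arrays) and in E13.5 sorted neurons (y axis, 2 arrays), with the line of equal levels. The 447 genes called higher lie above the line and the 202 called lower below it, some uncalled genes lie as far from it, and the globin genes *Hbb-y* and *Hba-x* lie farthest below.

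The largest falls were those of embryonic globin genes. *Hbb-y*, the embryonic epsilon-type globin gene, had log2 levels of 3.76 and 3.96 on the 2 arrays of sorted neurons and 10.70 and 10.67 in the mdDA domain. It was 113-fold higher in the domain (difference -6.82, standard error 0.13, adjusted p = 3.55e-05, limma), and its mean level was 3.83 in E14.5 neurons and 10.37 in the lateral domain. *Hba-x*, the embryonic zeta globin gene, stood at 4.43 and 5.03 against 10.44 and 10.51, a 53.7-fold fall (adjusted p = 6.21e-04, limma). *Hbb-bh1* fell by 2.40 on the log2 scale, from 5.79 and 5.83 to 3.38 and 3.45. Both dissected domains were thus high and both sorted groups low for each of these genes. Of 13 measured erythroid genes these 3 were called and none was called higher, with a median difference of -0.50 over the 13. Their linear levels, summed over the list, were 210 and 211 on the arrays of sorted neurons and 3315 and 3336 in the domain. *Alas2*, which encodes the erythroid heme synthesis enzyme, had a difference of -0.86 and did not reach 2-fold. In bulk RNA of this kind, fewer cells of a type and less RNA per cell cannot be told apart.

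Genes of blood vessels were lower as well. Of 21 endothelial genes 4 fell and none rose, with a median difference of -0.54 and 20 of 21 differences below 0. The called genes were *Sox18* (-1.60), *Emcn* (-1.53), *Ramp2* (-1.34) and *Cdh5* (-1.05), which encode an endothelial transcription factor, a surface sialomucin, a receptor activity modifying protein and VE-cadherin. *Cdh5* stood at 4.15 and 4.04 in sorted neurons and 5.11 and 5.20 in the domain, and *Emcn* at 3.26 and 3.13 against 4.57 and 4.88. The defining markers *Pecam1* (-0.67), *Kdr* (-0.23), *Flt1* (-0.78), *Tie1* (-0.52) and *Cldn5* (-0.80) had negative differences that were not called, and the median level of the list in sorted neurons, 3.96, was below the array median. Without either of the mdDA domain arrays only 2 endothelial genes were called, and the calls of *Cdh5* and *Ramp2* were lost.

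Among 15 genes of pericytes and mural cells, *Rgs5*, a regulator of G protein signaling typical of pericytes, was lower by 1.67 log2 units (4.78 and 4.49 against 6.27 and 6.34, adjusted p = 0.0138, limma). *Abcc9*, a subunit of a pericyte potassium channel, and *Vtn*, which encodes vitronectin, were also called, with differences of -1.11 and -1.10. Only *Rgs5* remained after centring, after repeated quantile normalization, or without the second array of sorted neurons. *Pdgfrb* (-0.75) and *Kcnj8* (-0.33) were not called.

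Of 28 genes of meningeal fibroblasts and extracellular matrix 4 fell, and none rose. *Postn*, which encodes the matrix protein periostin, had levels of 3.12 and 3.10 in sorted neurons and 6.03 and 7.26 in the domain (difference -3.53, standard error 0.42, adjusted p = 0.0125, limma). The 2 domain arrays lay far apart for *Postn*, and its mean level in the lateral domain was 3.58. *Fn1*, encoding fibronectin, fell 6.28-fold, from 7.12 and 7.32 to 4.58 and 4.57. *Sparc* (-1.61) and *Vim* (-1.26) were the remaining 2, and both are also expressed by neural progenitors. The markers that define fibroblasts were not called: *Col1a1* (-0.17), *Col1a2* (-0.40), *Col3a1* (-0.04), *Dcn* (-0.02) and *Lum* (-0.07) all had small differences, and those of *Col1a1*, *Col3a1*, *Dcn* and *Lum* turned positive after centring.

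None of 22 genes of microglia and macrophages was called in either direction. Their median difference was -0.28, and the summed linear level was 376 and 394 in sorted neurons against 486 and 478 in the domain. Among the defining markers *Tyrobp* had levels of 4.21 and 4.46 against 5.20 and 5.19 (difference -0.86, adjusted p = 0.0652, limma), *Cx3cr1* had a difference of -0.64, and *Aif1*, *Csf1r* and *Spi1* had differences of -0.30, -0.19 and -0.19 at levels below the array median. The chemokine gene *Ccl3*, which microglia are known to express, was higher by 3.19 in the sorted neurons. It stood at 6.95 and 7.17 against 4.02 and 3.73, and reached a mean of 7.89 at E14.5 (adjusted p = 0.00181, limma). *Ccl4*, its neighbor in the chemokine family, named here after its values were seen, had a difference of 0.04. Among 9 genes of the oligodendrocyte lineage and neural crest, *Olig1*, *Olig2*, *Pdgfra* and *Sox10* among them, none was called, and the median difference was -0.02.

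**Figure D2:**
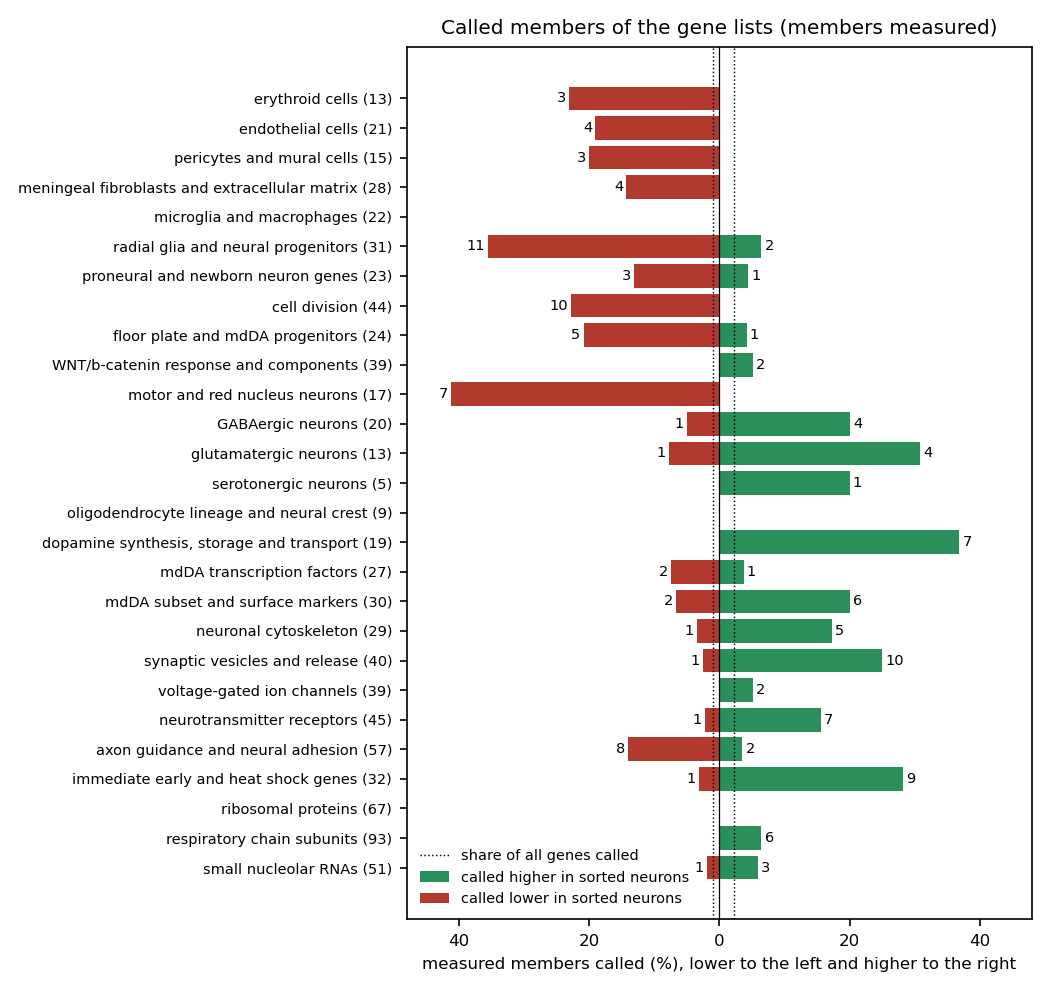
Share of the measured members of each of 27 gene lists called higher (green, to the right) or lower (red, to the left) in E13.5 sorted neurons, with the number called beside each bar and the number measured in brackets. Dotted lines mark the shares of all genes, 2.24% higher and 1.01% lower. Motor and red nucleus, radial glia, cell division, floor plate and vascular lists extend to the left, and dopamine, immediate early, glutamatergic and vesicle lists to the right.

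Progenitor genes were lower in the sorted neurons. Of 31 genes of radial glia and neural progenitors 11 fell, against a background of 1.01%, and the median difference was -0.62. The defining markers *Hes5* (-0.77) and *Slc1a3* (-0.51) were not called, and *Sox1* (0.14), *Sox3* (0.11) and *Cdh2* (0.03) had small differences. *Nes*, which encodes the intermediate filament nestin, had levels of 4.01 and 4.47 in sorted neurons and 7.65 and 7.66 in the domain (difference -3.41, adjusted p = 0.00349, limma). Next came *Id3*, an inhibitor of proneural factors, with 3.76 and 4.27 against 6.83 and 7.34, and *Rfx4*, a transcription factor of neural progenitors, with a difference of -2.31. *Hey1* (-1.76) and *Notch1* (-1.43) belong to the NOTCH pathway, which keeps progenitors undifferentiated, and both fell together with *Prom1* (-1.42), *Ttyh1* (-1.21), *Vim* and *Fabp7* (-1.05). *Sox2* and *Sox9*, transcription factors that maintain neural progenitors, fell by 1.18 and 1.09 on the log2 scale, and their levels in the lateral domain, 8.16 and 8.03, were above those in the mdDA domain. The calls of *Sox2*, *Sox9* and *Fabp7* were lost after centring, that of *Sox9* also without the second array of sorted neurons or the first of the domain, and that of *Fabp7* without the second array of the domain. Without the first array of the domain 7 members of this list were called lower. Against the direction of the list, *Ptn*, which encodes the growth factor pleiotrophin (1.49), and *Gli3*, a transcription factor of the hedgehog pathway (1.47), rose.

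Genes of dividing cells were lower too. Of 44 measured genes 10 fell and none rose, with a median difference of -0.55 and 40 of 44 differences below 0. *Ccnd2*, the gene for the G1 cyclin D2, stood at 6.47 and 6.36 in sorted neurons and 9.21 and 9.31 in the domain, a 7.21-fold fall (standard error 0.32, adjusted p = 0.0106, limma). *Ccna2*, the cyclin of S phase and G2, fell 4.93-fold, from 6.52 and 6.89 to 4.41 and 4.39. The others were *Top2a* (-1.80), *Nusap1* (-1.64), *Ccnb2* (-1.62), *Mki67* (-1.44), *Bub1* (-1.25), *Kif11* (-1.12), *Ccne2* (-1.11) and *Mcm3* (-1.0), genes of DNA replication and the mitotic spindle. *Mki67*, the standard proliferation marker, had 4.48 and 4.30 against 5.89 and 5.78, and its level in the lateral domain was 7.78. *Cdk1*, the mitotic kinase, had a difference of -0.73 and did not reach 2-fold. A dimmer second probe set of *Top2a* had a difference of -0.15 (adjusted p = 0.824, limma) and did not show the fall of the first. Centring and repeated quantile normalization each left 7 genes called lower.

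Promoters of cell division genes often pair CCAAT boxes with a cell cycle gene homology region (CHR, letters TTTGAA or TTCGAA). The CHR is an element through which such genes are known to be silenced when cells leave the cycle. In RefSeq windows from 250 bases before to 50 after the start site (GRCm38.p6), searched on both strands, both motifs stood in 16 of 36 cell division genes with a window (44.4%) and in 2328 of 27025 genes in all (8.61%). Among the called cell division genes with a window, 5 of 7 (71.4%) held both. The windows of *Ccnb2* and *Top2a*, both called lower, are shown with every CHR and CCAAT match on either strand in capitals, so that CCAAT on the opposite strand reads ATTGG and TTTGAA reads TTCAAA. They lie on the minus strand at chr9:70421505-70421804 and chr11:99024140-99024439. These matches are a description of the letters and not of binding.
Ccnb2: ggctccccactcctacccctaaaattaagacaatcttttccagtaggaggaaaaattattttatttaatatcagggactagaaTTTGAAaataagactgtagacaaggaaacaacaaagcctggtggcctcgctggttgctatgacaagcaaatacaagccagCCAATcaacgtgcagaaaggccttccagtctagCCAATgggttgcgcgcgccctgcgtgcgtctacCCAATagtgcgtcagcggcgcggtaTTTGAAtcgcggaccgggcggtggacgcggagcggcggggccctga
Top2a: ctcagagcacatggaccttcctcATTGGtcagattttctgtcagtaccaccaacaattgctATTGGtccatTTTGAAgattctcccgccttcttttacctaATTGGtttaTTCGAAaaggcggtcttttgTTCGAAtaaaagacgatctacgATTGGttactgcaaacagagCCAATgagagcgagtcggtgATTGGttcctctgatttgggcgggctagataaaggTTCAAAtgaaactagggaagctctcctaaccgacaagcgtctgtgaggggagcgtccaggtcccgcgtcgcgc

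The step between progenitor and neuron was partly lower. Of 23 proneural and newborn neuron genes 3 fell, namely *Neurod1* (-1.66), *Mfng* (-1.56) and *Neurog2* (-1.26), and the median difference was -0.06. *Neurog2*, the proneural factor required for mdDA neuron formation, stood at 6.53 and 6.75 in sorted neurons and 7.86 and 7.94 in the domain (adjusted p = 0.00809, limma). *Dll1*, a NOTCH ligand of newborn neurons, had a difference of -1.11 with wider spread (4.91 and 4.23 against 5.83 and 5.53, adjusted p = 0.241, limma). *Neurod6* rose by 1.27, from 3.14 and 3.66 to 4.50 and 4.84, but was not called without either array of sorted neurons or without the first array of the domain. The call of *Mfng* was lost without the first array of either group.

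Floor plate genes split. Of 24 measured members 5 fell and 1 rose, with a median difference of -0.16. *Corin*, a protease gene that marks the mdDA floor plate, stood at 4.17 and 4.02 in sorted neurons and 6.24 and 5.91 in the domain, and its level in the lateral domain was 4.23. *Slit2* (-1.47) and *Spon1* (-1.29), secreted guidance proteins of the floor plate, fell with *Sulf1* (-1.05), a heparan sulfate sulfatase, and the progenitor factor *Nkx6-1* (-1.02). *Msx1* (-0.99) and *Msx2* (-0.91), factors of mdDA progenitors, lay just short of 2-fold. Factors that mdDA neurons keep were not lower: *Foxa2* had a difference of 0.09, *Foxa1* of 0.81 and *Shh* of 0.41, none of them called. The single rise was *Aldh1a1*, a gene that dopamine neurons express as well. Centring, or leaving out the second domain array, left 3 members called lower.

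Among 39 components and targets of WNT/b-catenin signaling, the pathway the *BAT-gal* reporter reads, none was called lower and 2 were called higher. *Tcf7l2* encodes a nuclear effector of the pathway. It stood at 8.21 and 8.38 in sorted neurons and 6.47 on both domain arrays (difference 1.82, adjusted p = 0.003, limma). Its mean level was 7.56 in E14.5 neurons and higher still in the lateral domain, at 9.45. The receptor gene *Fzd8* rose by 1.36. The list median was -0.07, and 26 of the 39 differences were negative. *Tcf7l1* (-0.81), *Rspo2* (-0.68), *Lrp5* (-0.68) and *Apcdd1* (-0.59) were lower and passed the adjusted p but not the 2-fold limit. *Axin2*, a general target, had a difference of 0.00 with overlapping arrays (5.78 and 6.38 against 6.32 and 5.84), and *Lef1*, a LEF/TCF factor, one of -0.44. *Nkd1* and *Sp5*, further targets, had differences of 0.23 and 0.04. A direction for *Axin2*, *Nkd1* or *Sp5* could not be given, since each changed sign when single arrays were left out.

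Some genes of neighboring nuclei were also lower. Of 17 genes of motor and red nucleus neurons 7 fell and none rose, with a median difference of -0.79. *Pou4f1*, a transcription factor of red nucleus neurons, stood at 5.36 and 4.77 in sorted neurons against 7.61 and 7.99, a 6.66-fold fall (adjusted p = 0.00459, limma). *Lhx1*, a LIM homeodomain gene of ventral midbrain neurons, fell 6.06-fold, from 7.50 and 7.76 to 4.71 and 5.36. Both were also high in the lateral domain, at mean levels of 8.51 and 7.93. *Isl1* (-1.73), a motor neuron factor, and *Sim1* (-1.67) fell as well and had lateral levels of 4.26 and 4.12, near those of the sorted neurons. *Slc5a7* (-1.20), the high-affinity choline transporter gene, *Nkx6-1* and *Nkx6-2* (-1.0) completed the list, while *Slc18a3* (-0.99) and *Phox2a* (-0.48), further motor neuron genes, were not called, nor were *Chat* (-0.41), *Isl2* (0.00) and *Mnx1* (-0.02). Without the second array of sorted neurons 4 members were called.

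**Figure D3:**
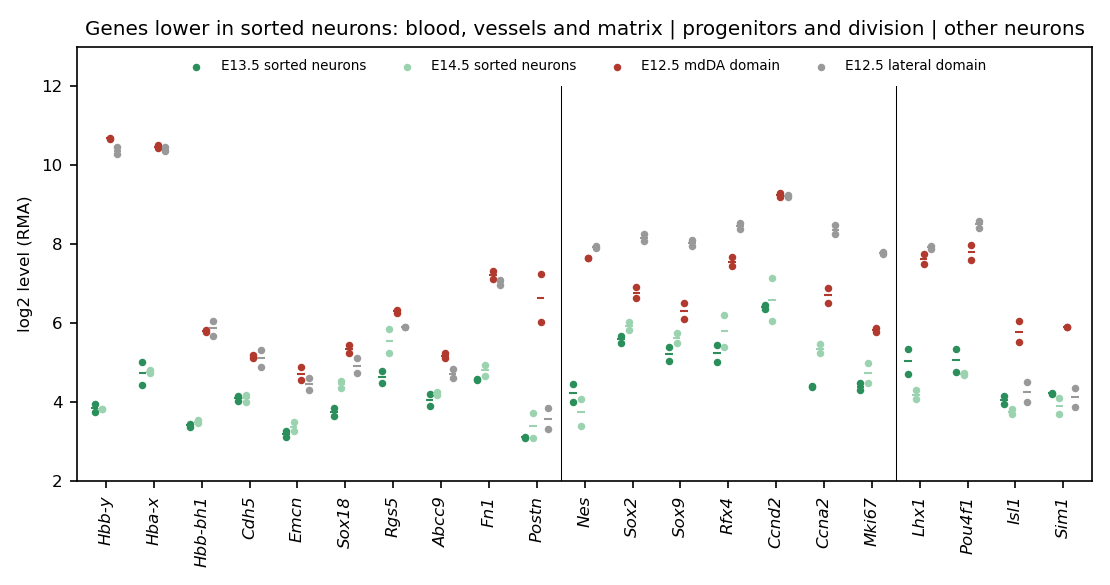
Log2 level on each of the 2 arrays of E13.5 and E14.5 sorted neurons, the E12.5 mdDA domain and the E12.5 lateral domain for 21 genes lower in E13.5 sorted neurons than in the mdDA domain, with short bars at the means. In every gene shown both arrays of E13.5 neurons lie below both arrays of the mdDA domain, for example *Nes* at 4.01 and 4.47 against 7.65 and 7.66.

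Genes of other transmitter fates did not fall with the motor and red nucleus genes. Of 20 GABAergic genes 4 rose and 1, *Lhx1*, fell. *Slc32a1*, the vesicular GABA transporter gene, stood at 7.84 and 7.50 in sorted neurons and 5.13 and 5.06 in the mdDA domain (difference 2.58, standard error 0.15, adjusted p = 0.00181, limma). *Gad2*, which encodes a GABA-synthesizing enzyme, rose 5.47-fold, from 5.29 and 5.31 to 7.95 and 7.56. In the lateral domain *Slc32a1* was at 6.44, below the sorted neurons, and *Gad2* at 8.34, above them. The GABAergic fate factor *Gata3* rose by 1.44 but stayed at 6.24 and 6.07 against 8.69 in the lateral domain, and *Sst*, the somatostatin gene, rose by 1.04. The call of *Sst* was lost with only the 4 arrays fitted, after repeated quantile normalization, without the first array of sorted neurons and without the second of the domain. *Gad1* (0.71), *Tal2* (0.14) and *Nkx2-2* (0.13) were not called, and *Tal2*, a selector of midbrain GABAergic fate, stood at 3.75 and 4.50 in sorted neurons against a lateral level of 8.96.

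Of 13 glutamatergic genes 4 rose and 1 fell. *Lhx2* and *Lhx9*, LIM homeodomain genes of dorsal and lateral midbrain and diencephalic neurons, stood at 7.37 and 6.83 against 4.21 and 5.05, and at 6.13 and 6.16 against 4.31 and 4.35. Their levels in the lateral domain were higher still, 9.79 and 9.0. *Tcf7l2* and *Calb2* (1.68), the calretinin gene, were the other rises. The vesicular glutamate transporter gene *Slc17a6* had a difference of -0.40 and was not called, and the homeobox gene *Meis2* fell by 1.30 with all 8 arrays, a call lost when any one of the 4 arrays compared was left out. Of 5 serotonergic genes only *Gch1* rose, which mdDA neurons share, while *Tph2* (0.03) and *Slc6a4* (0.27), the genes that define serotonergic neurons, lay below the array median in both groups. Whether the sorted fraction held cells of other transmitter types was not tested.

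Dopamine genes were higher in the sorted neurons. Of 19 measured members of that list 7 rose, against a background of 2.24%, and none was called lower. The cells were sorted by GFP from the *Pitx3* locus. In bulk RNA a larger share of mdDA neurons and more RNA per neuron cannot be told apart. *Th*, the rate-limiting enzyme gene of dopamine synthesis, stood at 10.58 and 10.57 in sorted neurons and 9.28 and 9.12 in the mdDA domain, a 2.59-fold rise (standard error 0.18, adjusted p = 0.0137, limma). *Ddc*, which encodes the next enzyme of the pathway, stood at 9.06 and 9.12 against 7.87 and 7.89, a 2.31-fold rise. *Gch1*, needed for the cofactor of TH, rose 3.91-fold, from 5.95 and 6.36 to 8.10 and 8.14. For these 3 genes the domain arrays lay between the lateral domain (5.34, 3.67 and 3.62) and the sorted neurons. *Slc18a2*, which loads dopamine into vesicles, rose 2.84-fold (9.48 and 9.49 against 7.96 and 8.0). *Slc6a3*, the dopamine transporter gene, rose 4.63-fold, with 8.01 and 8.32 against 5.83 and 6.08 (adjusted p = 0.00347, limma). *Drd2*, the dopamine autoreceptor gene, rose by 1.16, a call lost when any one of the 4 arrays was left out. The largest rise of a protein-coding gene was that of *Aldh1a1*, a retinaldehyde dehydrogenase that marks a subset of mdDA neurons and their progenitors, with 7.98 and 7.78 against 4.41 and 3.66 (14.4-fold, standard error 0.26, adjusted p = 0.00274, limma). Its mean level was 9.35 in E14.5 neurons and 4.23 in the lateral domain. The genes for the remaining cofactor enzymes *Pts* (-0.34), *Qdpr* (0.40), *Spr* (-0.05) and *Pcbd1* (0.66) and for the degrading enzymes *Maoa* (0.41) and *Maob* (-0.07) were not called. Summed over the list, the linear level was 5198 and 5295 in sorted neurons and 2430 and 2281 in the domain.

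The promoters of *Th* and *Ddc* are shown because both rose and both hold a motif of interest. In the window of *Th*, on the minus strand at chr7:142899946-142900245 (GRCm38.p6), the letters TGACGTCA, a cAMP response element, stand in capitals and begin 45 bases before the start site. This motif was added after the values were seen, and 2.03% of all genes and 2 of 17 dopamine genes with a window held it. The windows of *Fos*, *Fosb*, *Nr4a1* and *Jun*, which also rose, did not hold it. In a window of *Ddc*, on the minus strand at chr11:11898095-11898394, the capitals mark AAAGGTCA, read on the opposite strand. This is the monomer motif of NR4A nuclear receptors such as NR4A2, which 1.70% of all genes and 1 of 17 dopamine genes with a window held. Another window of *Ddc*, at chr11:11890359-11890658, did not hold it. Which start site the sorted neurons use was not tested. The window of *Slc6a3* held neither AAAGGTCA nor TAATCC, the core bound by PITX factors, which says only that these letters are absent there.
Th: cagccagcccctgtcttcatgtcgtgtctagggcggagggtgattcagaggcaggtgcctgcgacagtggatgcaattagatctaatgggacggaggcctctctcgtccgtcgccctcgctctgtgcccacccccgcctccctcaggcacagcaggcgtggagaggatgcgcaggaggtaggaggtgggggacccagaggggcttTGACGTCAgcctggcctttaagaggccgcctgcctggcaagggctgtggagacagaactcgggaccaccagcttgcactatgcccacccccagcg
Ddc: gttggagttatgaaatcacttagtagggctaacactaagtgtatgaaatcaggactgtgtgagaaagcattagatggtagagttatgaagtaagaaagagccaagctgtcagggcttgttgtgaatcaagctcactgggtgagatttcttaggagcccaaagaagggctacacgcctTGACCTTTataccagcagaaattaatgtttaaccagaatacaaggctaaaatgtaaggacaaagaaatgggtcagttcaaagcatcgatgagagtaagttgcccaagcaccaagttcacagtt

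The transcription factors that specify mdDA neurons showed few calls. Of 27 measured factors 1 rose and 2 fell, and the median difference was 0.41. *Nr4a2* had levels of 10.58 and 10.52 in sorted neurons and 10.10 and 10.16 in the domain (difference 0.42, adjusted p = 0.178, limma). *Pitx3*, with 1 allele replaced by GFP in the sorted cells, had 7.79 and 7.82 against 7.44 and 7.34 (difference 0.42, adjusted p = 0.24, limma). *En1* (0.42), *En2* (0.50) and *Lmx1b* (0.69) were likewise not called. The arrays of the 2 groups did not overlap for any of these 5 genes, which was also so for 57.2% of all genes. The one rise was *Bnc2*, a zinc finger gene, with 7.32 and 7.41 against 5.95 and 6.37, a call lost when any one of the 4 arrays was left out. *Nr2f2* and *Nr2f1*, COUP transcription factors that are high in the lateral domain as well (9.04 and 10.05), fell by 1.98 and 1.04 on the log2 scale. *Nr2f2* stood at 7.28 and 6.92 in sorted neurons and 9.06 and 9.10 in the domain. The call of *Nr2f1* was lost after centring, without the second array of sorted neurons and without the first of the domain.

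Genes in a list of mdDA subset and surface markers moved both ways. Of 30 measured markers 6 rose and 2 fell. *Chrna6* and *Chrnb3*, nicotinic receptor subunits of mdDA neurons, stood at 8.41 and 8.72 against 5.20 and 4.79 (11.9-fold, standard error 0.25, adjusted p = 0.003, limma) and at 5.88 and 6.00 against 4.01 and 4.03 (3.79-fold). *Cck*, the cholecystokinin gene, was at 9.62 and 9.52 against 7.02 and 7.10, and *Dlk1*, a transmembrane relative of NOTCH ligands, at 10.40 and 10.31 against 8.25 and 7.73. *Ret*, the GDNF receptor kinase gene, rose 3.52-fold, and *Calb2* was the sixth rise. On the other side *Cartpt*, a neuropeptide gene, fell 21.4-fold, from 9.33 and 9.60 in the domain to 4.95 and 5.14. Its mean levels were 4.71 in E14.5 neurons and 4.83 in the lateral domain, so that it was high in the mdDA domain only. *Sncg*, the gamma-synuclein gene, fell by 1.05, and leaving out any array but the second of the sorted neurons removed this call. *Kcnj6*, a channel gene of substantia nigra neurons, had a difference of 0.03, and *Calb1*, a marker of ventral tegmental neurons, one of 0.85 that was not called. The subset markers *Vip*, *Anxa1*, *Lpl* and *Tacr3* stood at levels below the array median in both groups.

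**Figure D4:**
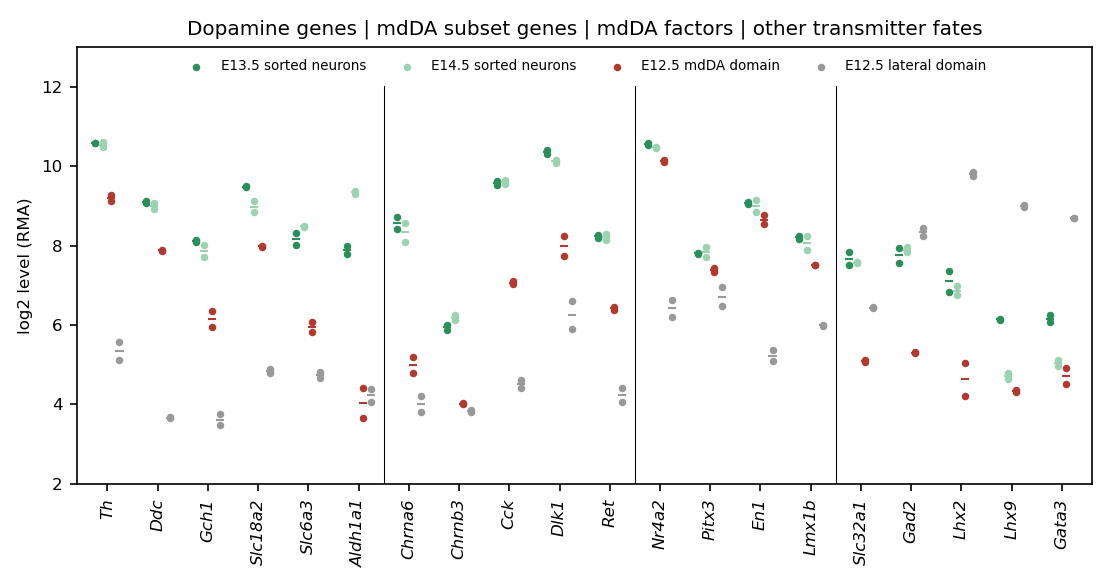
Log2 level on each of the 2 arrays of the 4 groups for dopamine genes, mdDA subset and surface genes, mdDA transcription factors and genes of other transmitter fates, with short bars at the means. Dopamine genes lie highest in the sorted neurons, *Nr4a2* and *Pitx3* lie close in sorted neurons and mdDA domain, and *Lhx2*, *Lhx9* and *Gata3* lie highest in the lateral domain.

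Neuronal maturation genes rose in part. Of 29 genes of the neuronal cytoskeleton 5 rose and 1 fell, with a median difference of 0.39. *Uchl1*, which encodes a neuronal deubiquitinase, rose 2.89-fold (10.22 and 10.07 against 8.69 and 8.53, adjusted p = 0.00469, limma), followed by *Dpysl2* (1.11), *Stmn4* (1.09), *Mapt* (1.01) and *Tubb4a* (1.01), genes of microtubules and their regulators. *Tubb3* (-0.12) and *Stmn2* (0.63), general markers of neurons, were not called, and *Tubb3* turned positive after centring. *Nefm*, a neurofilament gene, was lower by 1.27 (7.98 and 8.22 against 9.26 and 9.47). The neurofilament genes *Nefl* (-0.61) and *Nefh* (-0.52) also had negative differences but were not called, while 23 of the 29 differences in the list were above 0. After repeated quantile normalization 1 rise was left in this list. The count was 2 without the first array of sorted neurons, where *Dpysl2*, *Stmn4* and *Mapt* were lost, and 3 without the first of the domain.

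Of 40 genes of synaptic vesicles and release 10 rose and 1, *Sncg*, fell, and the median difference was 0.49. *Scg2* and *Chga*, proteins of dense-core vesicles, stood at 8.20 and 8.34 against 6.67 and 6.65 (3.05-fold, adjusted p = 0.00356, limma) and at 8.28 and 8.36 against 6.64 and 6.79 (3.05-fold). The vesicle membrane genes *Sv2a* (1.36), *Syngr3* (1.33), *Syp* (1.11), *Syngr1* (1.09) and *Syt4* (1.09) rose together with *Chgb* (1.16), *Rab3b* (1.03) and *Cadps2* (1.02). *Snap25* (0.97), *Syn1* (0.97) and *Syt1* (0.78), core genes of release, passed the adjusted p but not the 2-fold limit. Summed linear levels over the list were 9162 and 9146 in sorted neurons and 5602 and 5904 in the domain. Without the first domain array 5 members rose, and the call of *Syngr3* was among those lost.

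Channels and receptors changed in single members. Of 39 genes of voltage-gated channels, other ion channels and auxiliary subunits 2 rose. *Kcnip4* (1.96) encodes a modulator of A-type potassium channels and *Kcnn3* (1.06) a calcium-activated potassium channel of dopamine neurons. Voltage-gated sodium and calcium channel genes, such as *Scn3a* (0.09) and *Cacna1b* (0.26), were not called. After centring 6 members of this list rose. *Kcnip4* stood at 6.48 and 6.93 against 4.69 and 4.81, and the call of *Kcnn3* was lost without either array of the domain or without the second of the sorted neurons. Of 45 transmitter receptor genes 7 rose and 1 fell. Beside *Chrna6*, *Chrnb3* and *Drd2*, these were the glutamate receptor genes *Grik3* (1.60), *Grin2b* (1.11) and *Gria3* (1.09) and the GABA receptor gene *Gabra3* (1.39). *Grik3* was at 8.43 and 8.69 against 6.92 and 6.99, whereas *Grik1*, another kainate receptor gene, went the other way with 3.91 and 3.77 against 5.11 and 6.05. The call of *Grik1* was lost without the second array of sorted neurons, that of *Gabra3* without any of the other 3 arrays, and 3 receptors rose without either domain array.

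Of 57 genes of axon guidance and adhesion 8 fell and 2 rose, with a median difference of 0.06. *Robo3*, a receptor of commissural axons, stood at 4.40 and 5.21 in sorted neurons and 6.88 and 7.13 in the domain (difference -2.20, standard error 0.38, adjusted p = 0.0269, limma), and its call was lost without either domain array. *Slit3* (-1.67), *Sema3c* (-1.58) and *Slit2* are secreted cues, and *Sema3c* stood at 3.73 and 3.91 against 5.35 and 5.46. *Nrxn3* (1.18) and *Cntn1*, adhesion molecules of synapses and axons, rose. *Dcc* (0.00) and *Robo2* (0.07), receptors for netrin and Slit, had differences near 0, and that of *Dcc* changed sign with the scaling. After centring 8 members rose, and without the second domain array 5 fell.

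Immediate early genes, which neurons and other cells switch on within minutes of a stimulus, were among the largest rises. Of 32 immediate early and heat shock genes 9 rose and 1 fell. *Fos* stood at 7.95 and 7.86 in sorted neurons and 4.19 and 4.29 in the domain (12.7-fold, standard error 0.15, adjusted p = 7.77e-04, limma). *Fosb* rose 12-fold (8.62 and 8.59 against 5.36 and 4.68), *Egr1* 10.1-fold (8.0 and 7.79 against 4.91 and 4.22) and *Nr4a1* 9.88-fold (8.36 and 8.40 against 5.13 and 5.03). *Jun* (2.35), *Npas4* (2.11), *Dusp1* (1.69), *Klf6* (1.69) and *Klf4* (1.36) were the others. The lateral domain, dissected like the mdDA domain, had mean levels of 4.57 for *Fos*, 4.63 for *Fosb*, 4.60 for *Egr1* and 5.29 for *Nr4a1*, and the E14.5 neurons, sorted like those at E13.5, had 9.28, 9.60, 9.16 and 8.16. These genes were high on all 4 arrays of sorted cells and low on all 4 of dissected tissue, and the part of isolation in the difference cannot be told apart from those of stage, strain and genotype. Heat shock genes were not called, with differences of 0.33 for *Hspa1a*, 0.65 for *Dnajb1*, 0.44 for *Hsph1* and -0.28 for *Hspb1*. *Hspa8* (0.50) and *Dnaja1* (0.54) were higher and passed the adjusted p but not the 2-fold limit. *Atf3*, a stress-induced factor, had 5.85 and 4.63 against 3.80 and 4.41 and was not called (adjusted p = 0.182, limma). *Myc* was the one fall, by 1.25.

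Respiratory chain subunits had a median difference of 0.39, and 78 of 93 differences were above 0. The 6 called rises were *Uqcr11* (1.33), *Ndufv1* (1.26), *Ndufa9* (1.08), *Atp5a1* (1.08), *Uqcrh* (1.06) and *Atp5b* (1.05), spread over complexes I, III and V. Repeated quantile normalization gave 2 calls in this list and centring 12, and without the first domain array there were 3. Ribosomal protein genes, by comparison, had a median difference of 0.12 over 67 members with none called, where *Rpl41* had levels of 12.22 and 12.17 against 11.78 and 11.87. Among 51 small nucleolar RNAs, which guide modification of ribosomal RNA, the median difference was 0.01. *Snora44* nevertheless had the largest rise of all genes, with 9.79 and 9.81 in sorted neurons, 5.83 and 5.85 in the mdDA domain, 8.92 at E14.5 and 6.29 in the lateral domain (15.6-fold, standard error 0.19, adjusted p = 0.00137, limma). *Snord104* (1.32) and *Snord33* (1.10) were called higher and *Snord47* (-1.80) lower, each with calls lost without single arrays.

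**Figure D5:**
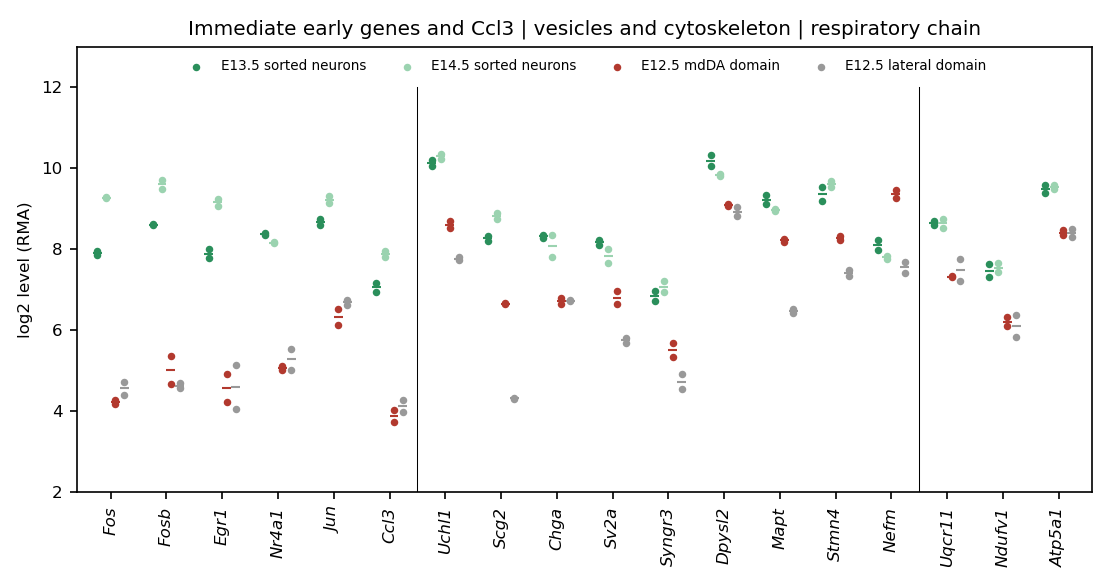
Log2 level on each of the 2 arrays of the 4 groups for immediate early genes and *Ccl3*, genes of vesicles and cytoskeleton, and respiratory chain subunits, with short bars at the means. Immediate early genes and *Ccl3* are high on all 4 arrays of sorted neurons and low on all 4 of dissected tissue, whereas *Nefm* is highest in the mdDA domain.

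A few genes outside these lists were among the 15 largest rises or falls. *Ldb2*, which encodes a cofactor of LIM homeodomain proteins, rose 8.0-fold, with 8.97 and 8.73 against 5.55 and 6.14. *Cacng3*, an auxiliary subunit of AMPA receptors, was at 7.19 and 7.11 against 4.60 and 4.43, and *Rit2*, a neuronal small GTPase gene, at 9.09 and 9.23 against 6.62 and 6.61. Both had their lowest level in the lateral domain, 3.64 and 4.68. The uncharacterized transcript *1700086L19Rik* rose 7.32-fold and reached 8.21 at E14.5. Among the falls, *Emx2*, a homeobox gene, went from 6.67 and 7.07 in the domain to 3.54 and 3.65 (9.67-fold, adjusted p = 0.00137, limma). The protocadherin genes *Pcdh11x* and *Pcdh9* fell 9.40-fold and 7.54-fold, and their lateral levels of 4.70 and 6.18 were below those of the mdDA domain. *Rny1*, a small noncoding RNA, fell 6.58-fold with a standard error of 0.73, and its call was lost when any one of the 4 arrays was left out, while *D130079A08Rik* fell 6.36-fold.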

How the data were processed

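Gene expression was measured on 8 Affymetrix Mouse Gene ST arrays. The deposited values are log2 gene-level RMA values that the authors made with the Affymetrix Expression Console, with sketch-quantile normalization. They were used as deposited, and arrays carry no read depth, so that their number limits the precision. RNA of the dissected domains came from fixed tissue and that of the sorted cells from live cells, which can affect measured levels. Probe sets were named from the platform annotation, in which 21789 had 1 symbol, 1621 several and 12146 none, and only those with 1 symbol were named. Where several probe sets shared a symbol, the brightest on average across the 8 arrays stood for the gene.

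Group means were fitted with limma 3.58.1 in R 4.3.3 to all 8 arrays, with 4 residual degrees of freedom. P-values were adjusted by Benjamini-Hochberg over all 35556 probe sets. The script was tested on simulated data. Named genes were the 15 largest rises and 15 largest falls among called genes without overlap of arrays, up to 4 called members of each list by size of difference (the 2 brightest where fewer than 2 were called) and each list's defining markers. Other list members were named after their values were seen. The comparison and the lists were chosen with earlier results of these data known. Alternatives changed the samples, normalization, filters, prior, thresholds and replicate block, and left out each array in turn, the lone array left being assumed to vary like the other groups. Promoter windows were those of RefSeq, GRCm38.p6. A genome build for the array values is not given in the sources used here.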

Additional observations from a re-analysis of the deposited data

Results flagged for a closer look

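In 2 of the genes called against the mdDA domain the sorted neurons also differed between E14.5 and E13.5. *Fos* was higher at E14.5 than at E13.5 by 1.37 on the log2 scale (adjusted p = 0.0937, limma), with both arrays at E14.5 above both at E13.5. *Lhx9* was lower at E14.5, with a difference of -1.44 (adjusted p = 0.0832, limma). The 2 contrasts share the E13.5 arrays.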

How the results depend on the processing

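Of the probe sets with 1 symbol, 499 were called higher and 240 lower. Centring on array medians gave 940 and 151, dropping the fold minimum 1703 and 986, and a fold minimum of 1.5 gave 1428 and 731. Leaving out single arrays gave 299 to 504 higher and 160 to 226 lower, with 299 without the first mdDA domain array. Fitting only the 4 arrays (492 and 238), repeated quantile normalization (392 and 217), leaving out dim probe sets (516 and 244), a trended and robust prior (500 and 240), adjustment over probe sets with 1 symbol (530 and 259) and a false discovery rate of 5% (452 and 211) stayed within 1.5 times. Replicate numbers did not pair the arrays, since deviations of same-numbered arrays correlated at -0.0374 to 0.013, and the fit with the replicate block gave 487 and 234. Of 100 named called genes 81 to 88 stayed called without single arrays and 90 to 100 under the other settings, and none changed sign. Uncalled genes did. After quantile normalization the differences were -0.03 for *Axin2*, 0.16 for *Col3a1*, 0.02 for *Csf1r*, -0.20 for *Dcc*, 0.19 for *Dcn*, 0.04 for *Lum*, -0.13 for *Robo2*, -0.10 for *Scn3a*, 0.07 for *Sox10* and 0.01 for *Spi1*. After centring they were 0.03 for *Col1a1*, 0.16 for *Col3a1*, 0.00 for *Csf1r*, 0.18 for *Dcn*, 0.13 for *Lum*, 0.14 for *Sox10*, 0.01 for *Spi1* and 0.07 for *Tubb3*. Without single arrays the differences ranged from -0.30 to 0.30 for *Axin2*, -0.19 to 0.11 for *Col3a1*, -0.08 to 0.08 for *Dcc*, -0.24 to 0.21 for *Dcn*, -0.07 to 0.14 for *Kcnj6*, -0.17 to 0.03 for *Lum*, -0.18 to 0.64 for *Nkd1*, -0.10 to 0.35 for *Nkx2-2*, -0.12 to 0.01 for *Sox10*, -0.10 to 0.17 for *Sp5*, -0.38 to 0.00 for *Spi1*, -0.24 to 0.51 for *Tal2* and -0.11 to 0.16 for *Tph2*. The cause was not tested.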

Other observations

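Gene families picked by symbol after their values were seen are given as counts, with no test. Over all genes 2.24% were called higher and 1.01% lower. Of 7 granin genes, whose products fill dense-core vesicles, 5 were called higher, *Chga*, *Chgb*, *Scg2*, *Scg5* and *Vgf*, with a median difference of 1.16. Of 10 *Bex* and *Tceal* genes 4 were called higher, with a median difference of 0.81. Among 24 dual-specificity phosphatase genes *Dusp1*, *Dusp3*, *Dusp4* and *Dusp6* were called higher. *Dusp4* stood at 8.70 and 8.91 in sorted neurons and 6.72 and 6.78 in the mdDA domain (difference 2.05, adjusted p = 0.00263, limma). Of 12 protocadherin genes *Pcdh11x*, *Pcdh7* and *Pcdh9* were called lower and *Pcdh10* higher. *Pcdh10* stood at 8.63 and 8.70 against 7.06 and 7.13.

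Among 77 mitochondrial ribosomal protein genes 8 were called higher, with a median difference of 0.40, and of 40 proteasome subunit genes 3 were called higher, with a median difference of 0.41. Of 287 microRNA hairpins none was called higher and 6 were called lower, *Mir103-2* (-2.34), *Mir181b-2* (-2.33) and *Mir99a* (-1.62) among them. For comparison, 1.01% of all genes and 2.27% of all probe sets were called lower.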
